A study of Mus musculus with 64 samples.

Results

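Clone N is 1 of 7 clonal lines subcloned from the cells of a single pancreatic tumour of a KPC mouse, and its mono-culture RNA-seq was compared with that of the other 6 clones, E, H, K, M, T and V. The members are the 4 libraries labelled as clone N grown alone, of 64 libraries in the series. The comparison group is the 24 mono-culture libraries of the other clones, 4 for each, with every clone averaged before the comparison. The KPC1 libraries were not part of it. KPC mice carry Trp53 R172H and Pdx1-Cre among their alleles, with Cre driven by the pancreatic Pdx1 promoter, and all 7 clones derive from that tumour, of a mixed C57BL/6 strain. These libraries came from tumour cells grown without fibroblasts, and the labels do not say whether they were sorted as the cocultured cells were. Clone N is a single line, so a difference between it and the others is a difference between lines and not between conditions.

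Tumours of the pancreatic duct hold cells that share their founding mutations and yet differ in metabolism, secreted factors and degree of epithelial character. One system that varies between such cells is the integrated stress response, in which kinases that phosphorylate eIF2 slow general translation while the transcription factor ATF4 is made. ATF4 and its partners switch on genes for amino acid synthesis, import and tRNA charging, among them Asns, which makes asparagine.

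The clone N libraries held 11661214 to 13716090 counts, at the lower end of the range of 11661214 to 21333683 over the 28 libraries, and no label says whether replicates came from separate cultures. P-values therefore measure the spread between libraries, which may be technical. Each of the 28 libraries correlated best with a library of its own clone. The keratin genes Krt8 and Krt19 averaged 1270 and 658 CPM (counts scaled to library size) in clone N and E-cadherin Cdh1 averaged 101 CPM, whereas the epithelial adhesion gene Epcam averaged 0.26 CPM and was near 0 in all clones. Of the 10 fibroblast markers, 6 were under 1 CPM in clone N and 4 were listed at 0 in all 4 libraries, the defining marker Dcn among them. Their summed level was nevertheless 185 to 253 CPM in clone N against 47.5 to 191 CPM in the other libraries, mostly from Pdgfrb at 70.3 to 115 CPM, Col3a1 at 58.6 to 83.4 CPM and Pdgfra at 21.1 to 52.1 CPM. Of the other marker lists, leukocyte genes summed to 7.77 to 14.3 CPM, endothelial genes to 1.26 to 2.19 CPM and acinar genes to 1.63 to 3.93 CPM in clone N, and endocrine genes reached at most 0.148 CPM. In bulk RNA, fewer cells that express a gene and less RNA per cell cannot be told apart.

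Of 13509 genes with enough counts to test, 1224 were higher in clone N than in the mean of the 6 other clones and 751 were lower (edgeR quasi-likelihood test, Benjamini-Hochberg adjusted p below 0.1 and a log2 difference of at least 1). These are 9.06% and 5.56% of the genes tested. A stricter description asked for genes that differed from every one of the 6 clones in the same direction, with a log2 difference of at least 1 to the nearest clone. By it, 145 genes were highest in clone N (1.07%) and 81 were lowest (0.6%), and 213 of them were annotated as protein coding. In 105 of the 145 highest genes (72.4%), all 4 clone N libraries lay above all 24 others, and in 56 of the 81 lowest genes (69.1%) they lay below them, against 2.47% and 3.5% of all genes tested. The highest and lowest genes were chosen by their gap in these same libraries, so the choice itself favoured a lack of overlap. The same rule gave between 46 highest genes for clone E and 215 for clone V, and between 38 lowest genes for clone T and 310 for clone K. Clone N lay between these extremes, although its 1224 genes above the mean of the others were the most of any clone. The libraries of each clone were also summed, with clone N set as 1 line against 6. By edgeR, 0 genes were then called in either direction after adjustment. There, 712 of 13509 genes had an unadjusted p under 0.05, near the share that this limit passes by chance. With no limit on p, 699 genes were higher there by a log2 of at least 1 and 1407 lower, reversing the balance above. The main contrast takes the mean of log2 clone values, which clones near 0 pull down. The counts of the main fit thus describe how far clone N stood from these 6 lines relative to the spread between libraries, not relative to the spread between lines.

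Clone T was the nearest line to clone N by both the number of differing genes and the correlation. Clone K was the farthest by the first and clone V by the second. With the same limits, 1540 genes differed between N and T, 2032 between N and E, 2635 between N and H, 3041 between N and M, 3295 between N and V, and 3728 between N and K. Pearson's r of mean log2 CPM across genes, which are not independent replicates, was 0.956 with T, 0.937 with E, 0.912 with M, 0.907 with H, 0.885 with K and 0.872 with V. Clone T was also the runner-up for 59 of the 145 highest genes and 31 of the 81 lowest genes.

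The 12 named genes on the high side included a mucin, a mucosal secreted protein, a flippase and a chemokine. Dmbt1, a secreted scavenger-type protein of mucosal surfaces, measured 10.4, 8.72, 17.1 and 20.5 CPM in the 4 clone N libraries, against a median of 0.107 and a highest value of 0.644 CPM in the others. Its nearest clone was E, from which it differed by 5.54 ± 0.434 (SE) on the log2 scale, 46.4-fold (edgeR, highest adjusted p of the 6 pairwise tests 9.69e-11). Muc5b, a gel-forming mucin, measured 13.2, 14.7, 18.4 and 25.4 CPM with a highest value of 4.23 CPM elsewhere. The clone N libraries did not overlap those of other clones for either gene. Atp9a, a phospholipid flippase, was at 20.7, 26.8, 20.8 and 20.7 CPM in clone N. In the other clones its median was 0 CPM, and only clone H, 3.52 ± 0.218 (SE) lower on the log2 scale, carried an appreciable level, with up to 2.56 CPM in a library (edgeR, adjusted p = 2.67e-10). Afap1l2, an adaptor protein downstream of tyrosine kinases, was at 23.2, 22.8, 21.4 and 15.7 CPM against at most 3.17 CPM. Of the remaining genes named by the rule, Bmper, an extracellular regulator of BMP ligands, averaged 24.4 CPM, 6.85-fold above clone T. Papss2, which makes the sulfate donor PAPS, averaged 6.62 CPM. The ubiquitin ligase gene Rnf125 averaged 5.06 CPM.

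**Figure D1:**
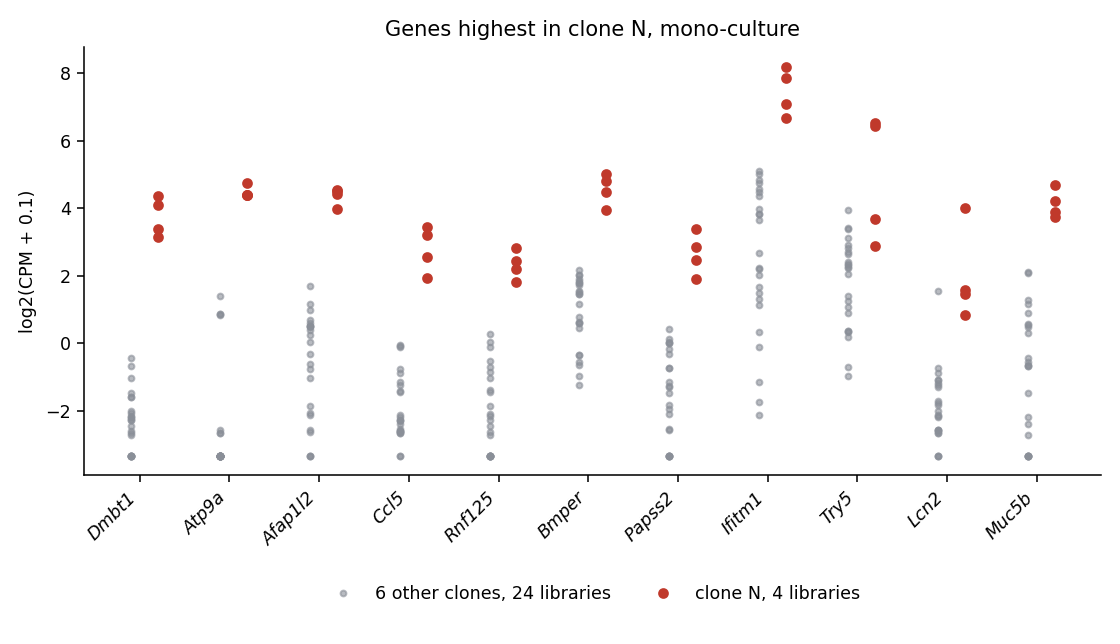
Genes highest in clone N with the largest log2 difference to the nearest clone, among protein-coding genes averaging at least 5 CPM in clone N. Shown are 11 of the 12 named by the rule, each point a mono-culture library on a log2(CPM + 0.1) axis. The 4 clone N libraries (red) lie above all 24 other libraries (grey) for all genes shown but Try5 and Lcn2, the 2 that overlap.

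Chemokine genes were also on the high side. Ccl5, a chemokine for T cells and monocytes, measured 5.77, 3.7, 9.16 and 10.9 CPM in clone N and at most 0.864 CPM elsewhere, 9.78-fold above clone H. Ccl20, also a chemokine, measured 3.4, 1.11, 1.54 and 1.22 CPM and reached at most 0.268 CPM in another library. Cxcl10 measured 2.22, 0.591, 3.4 and 5.93 CPM against at most 0.864 CPM, so its lowest clone N library overlapped the others. Ifitm1, an interferon-inducible membrane protein, was at 135, 101, 230 and 291 CPM with a highest value of 33.9 CPM elsewhere, from clone E. Of 45 chemokines and cytokines, 25 had enough counts to test. Of these, 14 were higher than the mean of the other clones (56%, against 9.06% of all genes) and 0 lower. Their median log2 difference was 1.08 against 0.0102 over all genes. Ccl20 had enough counts through clone N alone and could only come out higher. How many of the 14 did so was not counted, so the share is partly set by which genes were tested. Cxcl12, chosen after its values were seen, did not pass and is not counted as lower, although it was at 0 to 0.222 CPM in clone N and at 82.1 to 880 CPM on average in clones K, M, T and V. It is also listed at 0 in clone E, and its edgeR difference had no usable standard error. DESeq2 called 1 gene of this list lower. In coculture 12 of 27 chemokines and cytokines were higher and 1 lower, where 6.63% and 3.83% of all genes were.

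Try5 and Lcn2 show that the 4 clone N libraries were not alike. Try5, a trypsinogen of a family with near-identical copies, so that its counts are uncertain, was at 12.8 and 7.24 CPM in replicates 1 and 2 and 86.4 and 91.7 CPM in replicates 3 and 4. Lcn2, a secreted iron-siderophore binding protein, was at 16.1 CPM in replicate 3 and at 1.7 to 2.88 CPM in the other 3. Replicates 1 and 2 and replicates 3 and 4 also differed for several gene groups described below, and no label gives a reason. Without replicates 3 and 4, 170 genes were highest and 64 lowest, and without replicates 1 and 2, 250 were highest and 141 lowest, the first sharing 108 and 54 genes with the full set and the second 130 and 66. Leaving out these pairs was chosen after the data were seen.

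The growth factor genes Areg and Ereg, both EGF receptor ligands, and Ptgs2, which encodes the inducible cyclooxygenase, were highest in clone N and followed the same division of libraries. Areg measured 8.73, 6.73, 51 and 79.2 CPM, Ereg 48.8, 38.6, 106 and 116 CPM, and Ptgs2 81.2, 62.2, 305 and 393 CPM. The highest values of the 3 genes in another library were 15.2, 44.5 and 79.7 CPM, so the lowest clone N libraries of all 3 overlapped the others. Ptgs2, Ereg and Pdgfra were named after their values were seen. Pdgfra, a receptor for platelet-derived growth factors, was at 29.7, 52.1, 23.4 and 21.1 CPM against at most 15.5 CPM and did not overlap. Of 53 growth factors and receptor tyrosine kinases, 13 were higher (24.5%, against 9.06% of all genes) and 8 lower (15.1%, against 5.56%). Igf1 was lowest in clone N at 0 to 0.214 CPM, with clone T at 0.393 CPM on average.

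The list with the most higher genes was the integrated stress response and amino acid enzymes. Of 59 tested genes, 31 were higher in clone N and 1 was lower, 52.5% and 1.69% against 9.06% and 5.56% of all genes, and the median log2 difference was 1.02. Clone N had the highest mean of the 7 clones for 38 of the 59. As a median over the list, the log2 level relative to the other clones was 1.1, 0.642, 1.34 and 1.1 in replicates 1 to 4. Against the same mean of 6 clones, clone T stood at 0.62, 0.522, 0.641 and -0.0656. Clone E stood at 0.523, 0.241, 0.485 and 0.0706. A raised median was thus not particular to clone N, though it was largest there. The 4 that met the rule for highest were Trib3, a pseudokinase induced by ATF4, Asns, Aldh1l2, a mitochondrial folate enzyme, and Ddit3, which encodes the stress transcription factor CHOP. Trib3 measured 209, 94.6, 260 and 195 CPM in clone N, against a median of 28.1 and a highest value of 101 CPM in the other libraries. It was 1.36 ± 0.384 (SE) above clone T on the log2 scale (edgeR, highest adjusted p of 6 = 0.00559). Asns measured 355, 214, 415 and 350 CPM against a median of 127 and a highest value of 212 CPM, and stood 1.07 ± 0.327 above clone T (edgeR, highest adjusted p of 6 = 0.00984). That margin is close to the limit of 1, and the clone T libraries held 184, 171, 212 and 67.7 CPM, the last lowering their mean. Replicate 4 was also the lowest Asns library of clones E, H, M and V, at 102, 132, 17.7 and 55.3 CPM. In clones K and N the lowest was replicate 2. The list median was likewise lowest in replicate 4 of E, H, M, T and V and in replicate 2 of K and N. The reason was not tested. Aldh1l2 measured 332, 170, 423 and 330 CPM with at most 164 CPM elsewhere. Ddit3, named after its values were seen, was at 106, 62.1, 157 and 157 CPM with at most 70 CPM elsewhere. For Asns and Aldh1l2 even replicate 2, the lowest of the clone N libraries, lay above the other 24, whereas for Trib3 and Ddit3 it overlapped them.

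Atf4 itself measured 939, 664, 1069 and 956 CPM against a median of 411 and a highest value of 619 CPM, with a log2 difference to the mean of the other clones of 1.24 ± 0.143 (SE; edgeR, adjusted p = 3.88e-08). Psph, the last enzyme of serine synthesis, was at 95.7, 56, 106 and 104 CPM, and Shmt2, the mitochondrial serine hydroxymethyltransferase, at 529, 303, 586 and 414 CPM. Both passed the test against the mean, with log2 differences of 1.47 ± 0.167 and 1.53 ± 0.164. Their highest values elsewhere were 74.6 and 288 CPM, so replicate 2 of clone N overlapped the others for Psph and not for Shmt2. Slc7a11, the cystine importer, had the largest difference of the list, at 589, 334, 995 and 734 CPM against a median of 73.3 CPM and a log2 difference of 3.10 ± 0.234, but a clone T library reached 491 CPM, above replicate 2. Myc, a transcription factor that drives growth, was at 364, 314, 415 and 412 CPM and differed by 0.61 ± 0.0986 on the log2 scale, below the fold limit. The paper places clone N in its group 2, reported to hold less ATF4, ASNS, PSPH, SHMT2 and c-Myc protein than clones E, H and V. The values here are of RNA, and the contrast with the protein result was not tested. The upstream kinase genes Eif2ak3 and Eif2ak4, chosen after their values were seen, were not called, at 28.2 to 31.1 and 31.9 to 41.1 CPM in clone N. The 1 lower gene was the arginine transporter gene Slc7a3, at 0.243 to 0.739 CPM. Exons of Ddit3, Aldh1l2, Psph and Shmt2 overlap genes on the opposite strand, whose reads cannot be told apart if counting ignored strand.

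The count of higher genes in the list was 29 to 36 when any single library was left out and 27 to 36 without replicates 3 and 4 or replicates 1 and 2 of clone N. In coculture with fibroblasts, where tumour cells were sorted after 48 h, 9 of 60 tested genes of the list were higher in clone N and 1 lower, with a median of 0.518, while 6.63% of 13399 genes were higher and 3.83% lower there. Asns averaged 575 CPM in clone N cocultures, and another clone reached 596 CPM. The change in the clone N difference between the cultures was not tested.

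**Figure D2:**
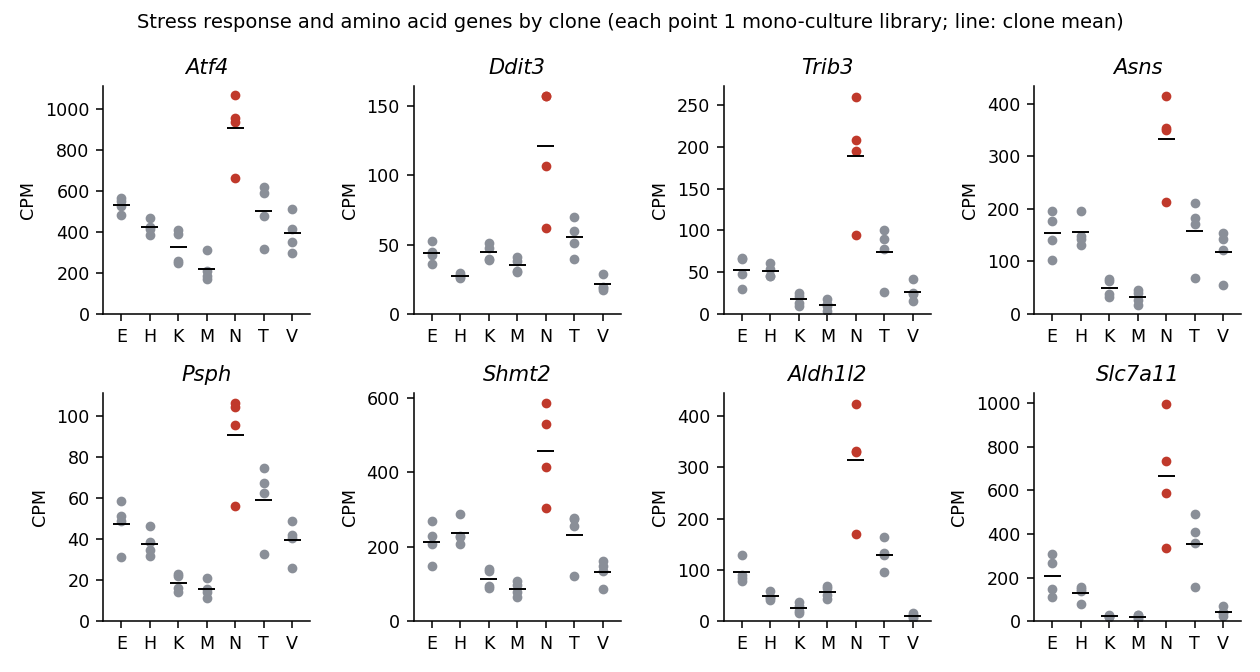
CPM of 8 stress response and amino acid genes in the mono-culture libraries of the 7 clones, each point a library and each line the clone mean. Clone N (red) has the highest mean in all 8 panels, and its replicate 2 is the lowest of its 4 libraries, at 214 CPM for Asns.

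Asns and Trib3 each carry, in a window from 250 bases before to 50 after their start, the letters TGATGNAA on either strand, a pattern of the kind bound by ATF4 with C/EBP partners. The windows are shown because these genes moved together. The sequences are RefSeq's on GRCm38.p6, read 5′ to 3′ on the gene's strand with the match in capitals, and lie at chr6:7693160-7693459 on the minus strand for Asns and chr2:152344011-152344310 on the minus strand for Trib3.
Asns: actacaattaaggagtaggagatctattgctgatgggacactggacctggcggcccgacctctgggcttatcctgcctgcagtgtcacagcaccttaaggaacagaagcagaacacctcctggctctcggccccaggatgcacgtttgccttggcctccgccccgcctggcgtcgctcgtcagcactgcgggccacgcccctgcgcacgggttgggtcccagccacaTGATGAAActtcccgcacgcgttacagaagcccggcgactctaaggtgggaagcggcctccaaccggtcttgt
Trib3: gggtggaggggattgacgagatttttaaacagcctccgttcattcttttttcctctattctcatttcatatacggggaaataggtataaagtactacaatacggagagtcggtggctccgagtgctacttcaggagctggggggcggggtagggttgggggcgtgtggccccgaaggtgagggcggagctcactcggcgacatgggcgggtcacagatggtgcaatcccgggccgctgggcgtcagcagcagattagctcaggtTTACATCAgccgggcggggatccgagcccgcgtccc
The letters were absent from the Ddit3 window, and Aldh1l2 has no entry. Of the 46 tested list members with a window, 7 of the 27 that were higher held the letters (25.9%) and 5 of the 19 that were not higher did (26.3%), against 2.69% of 9446 tested genes with a window and 3.97% of all 32851 windows. A match is a description of the sequence only.

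Interferon-stimulated and antigen presentation genes were more often higher than lower. Of 39 tested, 16 were higher (41%, against 9.06% of all genes) and 1 lower (2.56%, against 5.56%), with a median log2 difference of 0.508. Psmb8, an immunoproteasome subunit, was highest in clone N at 2.37, 3.7, 2.19 and 3.15 CPM, and its nearest clone was M, 1.73 ± 0.381 lower on the log2 scale (edgeR, highest adjusted p of 6 = 0.000534). Isg15, a ubiquitin-like interferon-induced protein named after its values were seen, was highest at 2.22, 2.29, 1.95 and 2.15 CPM, with at most 1.41 CPM in another library. Tap1, a subunit of the peptide transporter, was at 7.99, 7.54, 3.89 and 3.5 CPM, with up to 4.59 CPM elsewhere. The 1 lower gene was Irgm1, an interferon-inducible GTPase, at 24.9 to 45.6 CPM against clone means of 49.6 to 268 CPM. As a median over the list, the log2 level relative to the other clones was 0.605 and 0.973 in replicates 1 and 2 and 0.167 and 0.219 in replicates 3 and 4, the reverse order of Areg and Try5. Clone M, against the same mean of 6 clones, stood at 0.642, 0.678, 0.507 and 0.747, so a high median of this list was not particular to clone N. In coculture, 12 of 46 tested genes of this list were higher in clone N and 1 was lower, against 6.63% and 3.83% of all genes there, and the median was -0.0771. The Isg15 window holds 3 overlapping matches of GAAA, any 2 bases, then GAAA, the pattern of interferon response elements, searched on both strands. It lies at chr4:156200769-156201068 on the minus strand of GRCm38.p6 and is shown, in RefSeq's letters, because Isg15 was 1 of the 2 highest genes of the list.
Isg15: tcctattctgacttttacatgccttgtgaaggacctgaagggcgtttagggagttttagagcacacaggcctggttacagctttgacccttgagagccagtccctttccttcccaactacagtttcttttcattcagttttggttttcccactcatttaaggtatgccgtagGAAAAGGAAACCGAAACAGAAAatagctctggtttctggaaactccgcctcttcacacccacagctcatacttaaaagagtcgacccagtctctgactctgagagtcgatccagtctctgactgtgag
The Psmb8 window held no match. Matches were found for 5 of 11 higher members with a window (45.5%), 11 of 19 others (57.9%) and 3.67% of the 9446 tested genes.

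Cell cycle genes were also mostly on the high side. Of 49 tested, 22 were higher (44.9%, against 9.06% of all genes) and 0 lower, with a median log2 difference of 0.883, and none met the rule for highest. Ccne1, cyclin E1, measured 15.3, 11.5, 13.2 and 11.2 CPM against a median of 2.82 CPM, a log2 difference of 2.06 ± 0.172. Cdc6, which loads the replicative helicase, was at 25, 21.6, 15.1 and 15.2 CPM and differed by 1.97 on the log2 scale. Clone E was close to clone N for these genes. For Ccna2, cyclin A2, clone E averaged 104 CPM, within the clone N values of 161, 107, 58 and 68.4 CPM. Clone K had the lowest mean of the 7 clones for these 3 genes. The count in the cell cycle list was 13 of 49 without clone K and 12 with only libraries of label numbers up to 43, which also hold no clone K library. In coculture, 7 of the 49 were higher, where 6.63% of all genes were.

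Genes of the hypoxia and cholesterol lists depended on which clone N libraries were read. Of 22 hypoxia genes, 10 were higher (45.5%, against 9.06% of all genes) and 0 lower, with 4 of them highest in clone N. Car12, a membrane carbonic anhydrase, measured 20.8, 22.9, 12.5 and 14 CPM with at most 7.54 CPM elsewhere. Epas1, which encodes HIF-2alpha, measured 22.9, 45, 16.1 and 26.2 CPM with at most 12.3 CPM. Both were separate from the other clones in every clone N library. Ero1l, an oxidoreductase of disulfide bond formation, was at 119, 88.8, 297 and 478 CPM, and Bnip3, a mitophagy receptor named after its values were seen, at 21.5, 22.8, 56.1 and 170 CPM against at most 57.6 CPM elsewhere. As a median over the list, the log2 level relative to the other clones was -0.00945 and 0.153 in replicates 1 and 2 and 0.924 and 1.59 in replicates 3 and 4. Without replicates 3 and 4, 4 of 22 hypoxia genes were higher and the median difference was 0.0506, and without replicate 4 alone 5 of 22 were higher. In cholesterol and fatty acid synthesis, 0 of 39 genes were higher and 4 were lower (10.3%, against 5.56% of all genes), with a median of -0.418. Hmgcs1, an enzyme on the way to mevalonate, was at 300, 444, 187 and 252 CPM, below every other library, the lowest of which held 453 CPM. Without replicates 3 and 4, 0 genes of the cholesterol and fatty acid synthesis list were called lower by edgeR, and without replicates 1 and 2, 15 were. In coculture, 6 of 24 hypoxia genes were higher, against 6.63% of all genes, and of the 39 cholesterol and fatty acid genes 1 was higher and 0 were lower by edgeR. For the glycolysis and lactate list, 6 of 35 genes were higher (17.1%, against 9.06%), among them the glucose transporter gene Slc2a1 at 134, 128, 288 and 361 CPM, and 2 without replicates 3 and 4. In every clone, replicate 4 had the highest median of the glycolysis and lactate list, 0.911 in N and 0.0219 to 0.261 in the others. For the hypoxia list, replicate 4 was the highest in every clone but H. A raised replicate 4 was thus not confined to clone N. The cause of this division of libraries was not tested.

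**Figure D3:**
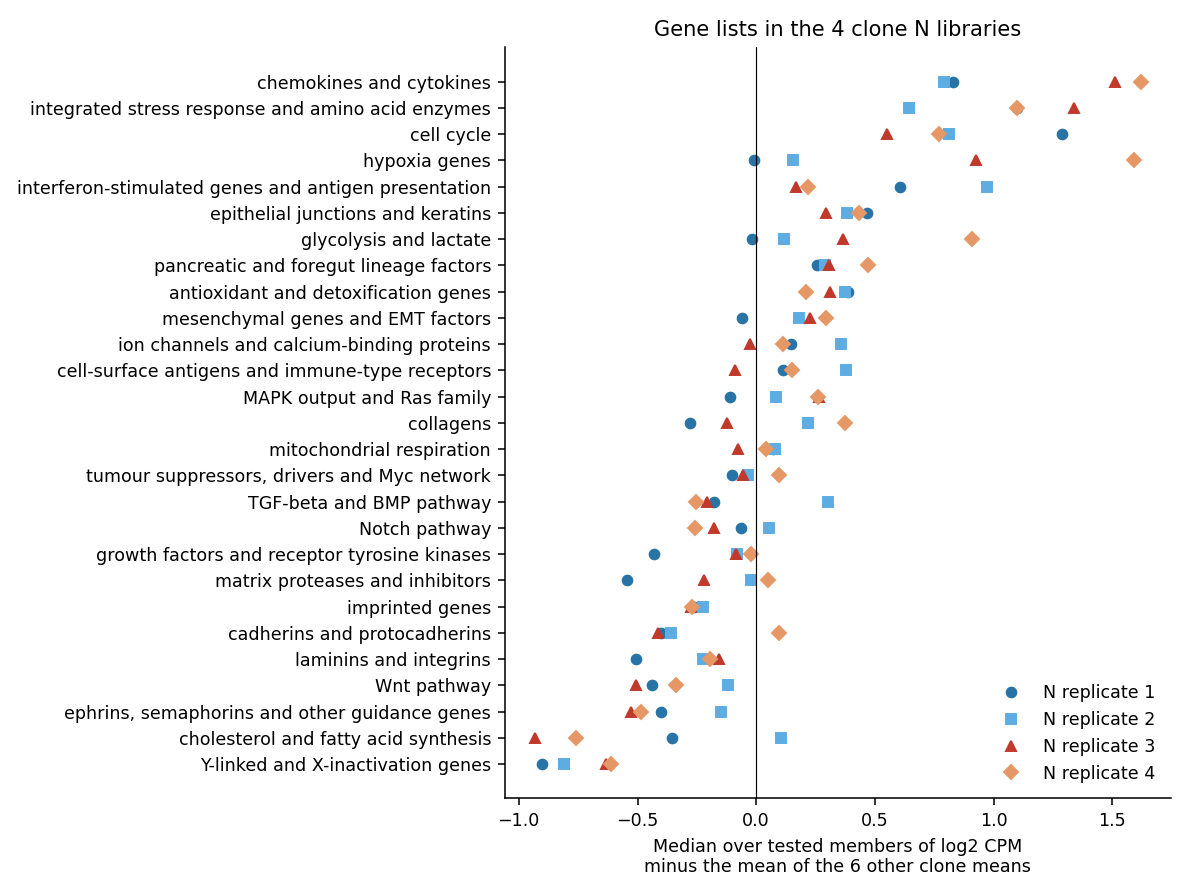
Median over the tested members of each gene list of log2 CPM minus the mean of the 6 other clone means, for the 4 clone N libraries (Hox genes, with 2 tested members, are left out). For the hypoxia genes, replicates 1 and 2 sit near 0 while replicates 3 and 4 sit at 0.924 and 1.59, and for the integrated stress response all 4 sit above 0.6. Clone T, not shown, reached 0.641 for the integrated stress response.

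Few mitochondrial respiration genes passed the test. Of 56 tested, 0 were higher and 1 was lower by edgeR (DESeq2 gave 0 and 1). These are 0% and 1.79%, against 9.06% and 5.56% of all genes. The median log2 difference was 0.0506. The lower gene was Ppargc1a, a coactivator of mitochondrial biogenesis, at 0.37, 0.444, 0.811 and 0.286 CPM against a median of 4.93 and a lowest value of 1.62 CPM in the other libraries. It was lowest in clone N, 2.25 below clone K on the log2 scale (SE 0.353; edgeR, highest adjusted p of 6 = 3.53e-06), with no overlap.

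On the low side, the rule that named 12 genes asked for at least 5 CPM on average in every other clone. Mylip, under that level in some clones, had a wider gap than any of the 12, -5.29 on the log2 scale. Pogk, a KRAB-domain gene derived from a pogo transposon, measured 0.666, 0.222, 0.243 and 0.286 CPM in clone N, against a lowest value of 9.31 and a median of 22.8 CPM elsewhere. It stood 4.90 ± 0.21 (SE) below clone T on the log2 scale, 29.9-fold (edgeR, highest adjusted p of 6 = 3.53e-15). Epha7, an ephrin receptor, measured 0.296, 0.517, 0.405 and 0 CPM against at least 2.83 CPM elsewhere. Ank2, an ankyrin that anchors membrane proteins, was at 1.41, 2, 0.973 and 1.07 CPM against at least 5.73 CPM. Pak3, a kinase activated by Rac and Cdc42, was at 2.44, 1.55, 2.84 and 2.65 CPM against at least 8.99 CPM. Gnai1, an inhibitory G protein subunit, was at 2.15, 1.63, 1.05 and 1.72 CPM against at least 6.07 CPM. In all 12 genes that the rule named on the low side, every clone N library lay below every other library, as in 3.5% of all genes tested. The 12 were chosen for the widest gaps in these same libraries, which favours such a lack of overlap. Exons of Pogk, Ank2, Lphn3 and Arvcf overlap a gene on the opposite strand. The others of the 12 were Faxc, Lphn3, an adhesion receptor, Prex2, an exchange factor for Rac, the mitochondrial deacylase gene Sirt5, Zbtb10, Sema5a and Arvcf, between 3.02-fold and 5.18-fold below the nearest clone. Of 52 ephrins, semaphorins and other guidance genes, 4 were higher (7.69%, against 9.06% of all genes) and 9 lower (17.3%, against 5.56%), and 3 met the rule for lowest.

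**Figure D4:**
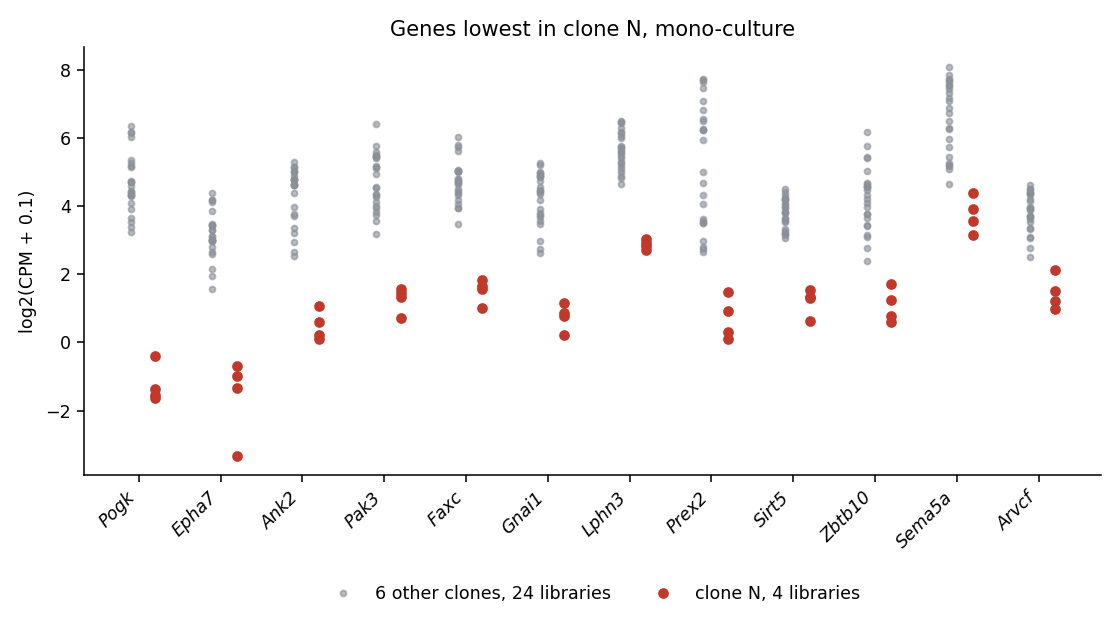
The 12 genes lowest in clone N with the largest log2 difference to the nearest clone, among protein-coding genes averaging at least 5 CPM in every other clone. Each point is a mono-culture library on a log2(CPM + 0.1) axis. The 4 clone N libraries (red) lie below all 24 other libraries (grey) for each of the 12.

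A few genes were close to on or off. Zic5, a zinc finger transcription factor, measured 3.33, 2.51, 1.95 and 2 CPM in clone N and averaged 0.062 CPM in clone M and 0 CPM in the other 5 clones. Unc93b1, which carries nucleic-acid-sensing Toll-like receptors to endosomes, measured 1.7, 0.739, 1.3 and 0.929 CPM, with clone means of at most 0.08 CPM elsewhere. These were the 2 genes with a mean of at least 1 CPM in clone N and under 0.1 CPM in each other clone. Mylip, a ubiquitin ligase for the LDL receptor, was the 1 gene in the reverse state, with 1 count over the 4 clone N libraries and clone means of 1.04 CPM in E to 11.1 CPM in V. In coculture, Mylip averaged 1.05 CPM in clone N, and Zic5 2.66 CPM. Of 38 Hox genes, 2 had enough counts to test, and both were highest in clone N, where 1.07% of all genes were. Hoxa3 measured 4.14, 7.39, 4.3 and 7.79 CPM, although its exons overlap other genes on both strands. Hoxa6 measured 1.04, 0.665, 0.649 and 1.07 CPM, with at most 0.206 CPM in another library. It thus had enough counts through clone N alone and could only come out higher. In coculture, 2 of 10 tested Hox genes were higher, where 6.63% of all genes were. Of the lowest genes, 9 had 0 counts in all 4 clone N libraries. Pappa2, a protease of insulin-like growth factor binding proteins chosen after its values were seen, averaged 0.848 CPM in the lowest other clone, so that it was at least 15.1-fold lower in clone N against a floor of 3 counts over the 4 libraries (0.0562 CPM), and Arhgap24, a Rac-directed GTPase-activating protein, was at least 9.27-fold lower.

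Epithelial and mesenchymal genes were mixed. Of 35 epithelial junction and keratin genes, 11 were higher (31.4%, against 9.06% of all genes) and 6 lower (17.1%, against 5.56%). Spint1, a membrane serine protease inhibitor, was highest in clone N at 0.592, 0.739, 1.62 and 0.786 CPM, and the tight junction gene Cldn1 was lowest, with 0.148 CPM in replicate 2 and 0 CPM in the other 3. Of 39 mesenchymal genes, 10 were higher (25.6%) and 2 lower (5.13%). The summed fibroblast markers were also high in clone N, at 185 to 253 CPM, with Dcn, Lum, Postn and Thy1 at 0 counts in its 4 libraries. Fbn1, a fibrillin of elastic microfibrils, was highest at 23.8, 29.7, 21.3 and 21.4 CPM with at most 9.87 CPM elsewhere, and the transcription factor gene Snai2, named after its values were seen, at 35.6, 30.6, 52.7 and 45.5 CPM with at most 17.5 CPM. Hnf4a, a foregut lineage factor, was higher than the mean of the other clones at 73.7, 78.5, 31.9 and 27.3 CPM, but clone T averaged 79.7 CPM. Of the 19 lineage factors tested, 6 were higher (31.6%) and 1 was lower (5.26%). In the Wnt pathway, 6 of 36 genes were higher (16.7%) and 10 lower (27.8%). Wnt5a was at 0 to 0.296 CPM in clone N, with clone means from 0.429 CPM in E to 70.8 CPM in V.

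Several further lists held members that were highest or lowest in clone N, and their shares are to be read against 9.06% of all genes higher and 5.56% lower. Of 69 antioxidant and detoxification genes, 19 were higher (27.5%) and 5 lower (7.25%). Gsta3, a glutathione S-transferase of a family with similar copies, was highest at 2.29, 2.59, 2.35 and 2.14 CPM against at most 1.03 CPM. Nqo1, a quinone reductase induced by NRF2, was at 24, 20.6, 26.9 and 25.2 CPM, but another library reached 29.6 CPM. Of 42 genes of MAPK output and the Ras family, 6 were higher (14.3%) and 3 lower (7.14%), near the shares of all genes. Spry4, a feedback inhibitor of receptor signalling, was highest at 64.8, 64.5, 119 and 116 CPM against at most 45.4 CPM. Dusp1, a MAP kinase phosphatase, was lowest at 4.29, 7.91, 7.78 and 11.7 CPM, and its highest library overlapped the others, which began at 8.91 CPM. Of 42 TGF-beta and BMP pathway genes, 9 were higher (21.4%) and 3 lower (7.14%). Acvrl1, a BMP receptor, was highest at 1.55, 3.25, 1.62 and 1.5 CPM against at most 0.441 CPM, and Grem1, a BMP antagonist, was higher at 320, 357, 574 and 543 CPM, where another library reached 357 CPM. Of 40 matrix proteases and inhibitors, 4 were higher (10%) and 6 lower (15%), the first near the share of all genes. The collagenase gene Mmp13 was highest at 8.88, 11.4, 20 and 22.8 CPM against at most 6.44 CPM, and the membrane-bound Mmp15 was lowest at 0.518, 0.37, 0.405 and 0.143 CPM. Its clone N libraries overlapped those of clone T, which averaged 0.765 CPM (log2 difference -1.10 ± 0.497 SE; edgeR, adjusted p = 0.0767), while the median of the other libraries was 9.8 CPM.

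Chromosome 13 had the lowest median of any chromosome in clone N. Over its 372 genes with a mean of at least 5 CPM, the median log2 difference to the other clones was -0.728, -0.75, -0.664 and -0.715 in the 4 clone N libraries, while no other library fell below -0.26. Of these genes, 342 (91.9%) were below the mean of the other clones in clone N. In 8 consecutive segments along the chromosome, 7 of 50 genes and a last one of 22, the clone N median lay between -0.849 and -0.595, and no other clone fell below -0.206 in any of them. Of 499 genes tested on chromosome 13, 136 were lower in clone N (27.3%) and 14 higher (2.81%), against 5.56% and 9.06% of all genes, so the chromosome held 136 of the 751 lower genes. It also held 11 of the 81 lowest genes, among them Mylip, Sirt5, Edn1, which encodes the vasoconstrictor endothelin-1, and Sema4d, a semaphorin. Edn1 and Sema4d were named after their values were seen. Hmgcs1, 1 of the 4 lower genes of the cholesterol list, is also on chromosome 13. The X chromosome showed a smaller difference in the same direction, with medians of -0.324, -0.307, -0.413 and -0.383 and 10.3% of 439 genes lower. Chromosomes 14 and 1 had the largest positive medians, 0.232 to 0.27 and 0.207 to 0.255. In coculture the clone N medians were -0.677 for chromosome 13 and -0.348 for X. The Y-linked genes Eif2s3y, Uty and Kdm5d were lower too, with Eif2s3y at 25.4, 30.5, 37.1 and 40.6 CPM against at least 61.3 CPM in the other libraries. DNA copy number was not measured in these files, and its part in the result was not tested.

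**Figure D5:**
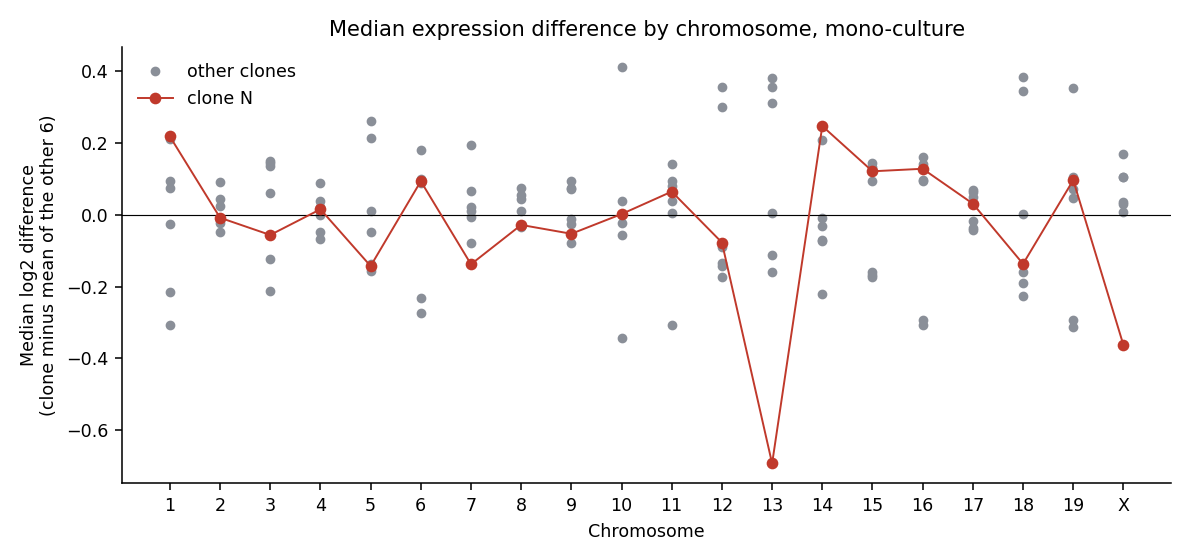
Median log2 difference of each clone from the mean of the other 6 clones over genes with a mean of at least 5 CPM, by chromosome. Clone N (red, joined by a line) reaches -0.693 on chromosome 13 and -0.363 on X, below every other clone (grey) on both.

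The coculture libraries of the same clones gave a separate reading of which genes mark clone N. There, 132 of 13399 genes were highest (0.985%) and 49 lowest (0.366%). The sets shared 64 highest genes, 44.1% of the mono-culture set and 48.5% of the coculture set, and 26 lowest genes, 32.1% and 53.1%. Of the 126 highest genes that could be tested in both cultures, 108 were also higher than the mean in coculture, and 67 of 80 lowest genes were also lower, with 0 of either set changing sign. Of the 12 named highest genes, all but Try5 and Lcn2 were highest in coculture too. Of the 12 named lowest genes, all but Prex2 and Arvcf were lowest there. Dmbt1 averaged 3.47 CPM in clone N cocultures and at most 0.108 CPM in another clone, and Pogk 1.68 CPM against at least 17.4 CPM.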

How the data were processed

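RNA was measured by strand-specific polyA sequencing with paired 76 bp reads. The deposited counts are raw reads per gene; per the labels, the submitters' processing notes name featureCounts, edgeR and build mm10 without roles, and the aligner and annotation are not given in the sources used here. The authors also deposited RPKM values, used only as an alternative. Both tables cover 37797 genes in common, and some genes with counts are listed at 0 RPKM, so they were not quantified alike. Whether counting used strand is not given, so reads of overlapping antisense genes cannot be told apart.

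Counts were analysed in edgeR 4.0.16 with TMM factors, on genes kept by filterByExpr, in 1 quasi-likelihood fit of 28 mono-culture libraries of 7 clones, with contrasts of clone N against the unweighted mean of 6 clones and against each. CPM used the same factors. The filter keeps a gene with enough counts in 1 clone, so a gene could be tested through clone N alone and then only come out higher. Alternatives were DESeq2, limma on log2(RPKM + 1) and log2(RPKM + 0.1), other filters, thresholds and libraries. Named genes were, for each direction, the 12 protein-coding genes with the largest log2 difference to the nearest clone and at least 5 CPM on the higher side, the genes on or off, and up to 4 passing members of each of 28 gene lists by size, with Asns, Atf4, Psph, Shmt2 and Myc. Members and lists were chosen with earlier results of these data known. Gene positions came from GENCODE M21 on GRCm38, which has 37693 of the 39017 genes. Replicates of clone N differed far beyond counting noise (chi-square per gene 14.1 to 49.5). Same-numbered libraries of different clones had deviations correlated at 0.0672 on average, from -0.135 to 0.305. The numbers were not taken as pairs in the main fit, although the glycolysis and lactate median was highest in replicate 4 of every clone. The method was tested on simulated data. Intervals of counting error are not given, and p-values rest on the spread between libraries. Some genes are not reported here.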

Additional observations from a re-analysis of the deposited data

Results flagged for a closer look

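Of 131 named genes, 11 had 1 clone N library far from the other 3 by Dixon's 95% criterion for 4 samples, where chance, at 1 in 20 groups, gives about 6.55. Replicate 2 was the distant library for Atp9a (26.8 CPM), Notum, a Wnt inhibitor (10.9 CPM), Pdk4, a kinase of pyruvate dehydrogenase (4.07 CPM), Acvrl1, a BMP receptor (3.25 CPM), Cldn1 (0.148 CPM) and Flrt2 (0.0739 CPM). Replicate 3 was distant for Lcn2 (16.1 CPM), replicate 4 for Col11a1 (0.215 CPM) and Gata6 (0.0715 CPM), and replicate 1 for Pogk (0.666 CPM) and Pcdh9 (0.074 CPM). The values of Cldn1, Flrt2, Gata6 and Pcdh9 come from 1 or 2 counts in a single library.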

How the results depend on the processing

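The named genes' differences, to the nearest clone for the 12 highest and 12 lowest and to the mean of the other clones for the rest, all kept direction and call under DESeq2, RLE factors and each removal of 1 clone N library. Under clone sums no named gene kept its call (lowest adjusted p 0.875), and Notch3 (-0.56), Ncam1 (-0.78) and Snrpn (-0.50) changed sign. In coculture 8 lost it and Col5a3 (0.21), Col12a1 (1.38), Itga11 (1.01) and Id4 (0.56) changed sign, and limma on log2(RPKM + 1) gave -0.0386 for Notch3. The causes were not tested, other than that settings below change what is called by construction.

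Without a minimum difference, 4559 genes were higher, 4216 lower, 759 highest and 919 lowest, and with a log2 difference of 2, 454, 216, 38 and 34. With limma on log2(RPKM + 1) they were 436, 247, 58 and 5, with a pseudocount of 0.1, 41 were lowest, and with every gene with a count, 2266 were higher and 254 highest. Clone sums gave 0 higher and 0 lower (edgeR, 712 of 13509 genes at an unadjusted p under 0.05, near the share passed by chance). Label numbers up to 43 gave 220 highest, leaving out clone T 228 highest and 134 lowest, leaving out clone N replicates 1 and 2, 250 and 141, and coculture 49 lowest. The 2 genes on became 1 at 2 CPM, 21 at 0.5 CPM, 7 with off under 0.2 CPM, 0 under 0.05 CPM and 1 in coculture, which was Wnt6 and neither of the 2, and the 1 gene off became 0, 7, 2 with off under 0.2 CPM and 0 in coculture. On RPKM levels the genes on were Dmbt1 and Gm20748 and the gene off was Pogk, with 0 shared. Leaving out 1 library gave 1 to 4 genes on (1 without clone V replicate 4, 4 without clone N replicate 2) and 0 to 2 off (0 without clone E replicate 4, 2 without clone N replicate 2). With the replicate number as a block, 1214 genes were higher, 767 lower, 143 highest and 80 lowest; the numbers were not taken as pairs. Genes on or off near 1 CPM rest on few counts (131 over the 4 clone N libraries for Zic5), so depth limits those calls.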
